A study of Mus musculus with 6 samples.

Results

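The NRF2, glutathione and antioxidant genes described here were 39 genes chosen by symbol for their known roles, out of 21240 genes in the count table, and 36 of the 39 were among the 11080 genes expressed highly enough to be tested. The choice was made with earlier results of these data known. Shares of the set beside those of all genes are therefore descriptions, not independent of the data. RNA was measured by stranded total RNA-seq in NMuMG cells, a line of epithelial cells from normal mouse mammary gland that changes towards a mesenchymal form when exposed to the cytokine TGFβ1. All cells were first kept 6 h without serum and insulin. The 3 groups, of 2 libraries each and labelled as biological replicates, were vehicle for 2 h (veh), 5 ng/ml TGFβ1 for 2 h (TGFb2h) and 5 ng/ml TGFβ1 for 12 h (TGFb12h). The vehicle was a BSA solution, given as HCl with BSA in the treatment protocol and as Tris-HCl with BSA in the sample labels. Because vehicle was sampled at 2 h only, the 12 h libraries differ from it both in TGFβ1 and in a longer time without serum and insulin, and these cannot be told apart. The genes were split into regulators, signature enzymes with heme breakdown, glutathione synthesis and recycling, peroxidases, transferases, the thioredoxin and peroxiredoxin system, NADPH supply, catalase with superoxide dismutases, and ferritin chains.

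NRF2, encoded by Nfe2l2, is the transcription factor that keeps most of these genes expressed and raises them under oxidative or electrophilic stress. KEAP1 holds NRF2 in the cytoplasm and marks it for degradation until reactive cysteines of KEAP1 are modified. NRF2 then enters the nucleus and binds, with a small MAF protein, to antioxidant response elements near genes that make and recycle glutathione, conjugate toxic compounds to it, supply NADPH, and handle heme and iron. Since most of NRF2 control acts on the protein, the Nfe2l2 mRNA measured here is only part of its regulation.

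Library totals ranged from 14705886 to 23786993 counts, and TMM normalization factors from 0.961 to 1.07. The TGFβ response genes Smad7, Skil, Pmepa1 and Ltbp2 were higher at both times. Among 6 epithelial markers, Cdh1, Krt8, Krt18 and Ocln were expressed, whereas Epcam had 16 counts or fewer and Cldn7 was at 0 in 5 of 6 libraries. The summed epithelial markers were 3362 to 4022 CPM (read counts scaled to TMM-corrected library size) in vehicle, 4737 to 4857 CPM at 2 h and 9935 to 9960 CPM at 12 h, a rise carried by Krt8 and Krt18. Cdh1 and Ocln did not rise at 12 h against vehicle (log2FC -0.07 and -0.52), and both 12 h libraries of Ocln lay below vehicle. The part of the summed rise in the results below was not tested. The 5 leukocyte markers summed to at most 1.03 CPM in any library, with 0 to 4 counts of Ptprc. The 4 endothelial markers summed to 0.177 and 0.255 CPM in vehicle and 1.74 and 1.95 CPM at 12 h, where Cdh5 went from 1 and 2 counts to 39 and 36. The 4 fibroblast markers summed to 2.12 to 3.84 CPM over all libraries, and Pdgfrb among them went from 0 and 0 counts in vehicle to 22 and 26 at 12 h. The part of these low counts in the results was not tested. In bulk RNA, fewer cells of a type and less RNA per cell cannot be told apart. The median gap between the 2 replicates of a member was 0.10 on the log2 scale in vehicle, 0.23 at 2 h and 0.11 at 12 h, so that 2 h values were the least precise. Without TMM factors, the median log2FC over all genes tested moved to -0.12 at 2 h and -0.11 at 12 h, from -0.01 and 0.02 with them.

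Promoter sequences from RefSeq (GRCm38.p6) were used for 33 of the 39 genes (all but Gsr, Gsta4, Hmox1, Gclc, Abcc1 and Prdx6) and were searched over the 250 bases before the start site, on both strands, for the core of the antioxidant response element, TGACNNNGC, and for the AP-1 site TGAGTCA, which can lie inside that core. The core was found in 8 of 33 members (24.2%) and in 11.5% of 27025 genes. The AP-1 site was found in 5 of 33 members (15.2%) and in 5.16% of the same 27025 genes, which do not cover every chromosome. Of the matches found, 7 are shown as examples from several roles, with the matched letters in capitals, written 5′ to 3′ on the strand of the gene, and read from chr3:122245408-122245446 (plus), chr4:116685451-116685489 (plus), chr6:138140456-138140494 (plus), chrX:74428914-74428952 (minus) and chr2:75704880-75704913 (minus) for the core, and from chr19:4037965-4038001 (minus) and chr2:152105464-152105500 (plus) for the AP-1 site.
Gclm, core on the opposite strand: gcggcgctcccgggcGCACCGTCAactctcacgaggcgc
Prdx1, core on the opposite strand, overlapping an AP-1 site: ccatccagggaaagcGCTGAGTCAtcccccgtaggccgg
Mgst1, core on the opposite strand: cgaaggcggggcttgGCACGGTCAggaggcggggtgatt
G6pdx, core on the opposite strand: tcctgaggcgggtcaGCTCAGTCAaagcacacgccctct
Nfe2l2, core: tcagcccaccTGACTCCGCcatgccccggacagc
Gstp1, AP-1 site: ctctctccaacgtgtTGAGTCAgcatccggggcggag
Srxn1, AP-1 site: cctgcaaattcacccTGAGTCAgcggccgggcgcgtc
The matches begin between 45 and 240 bases before the start site. They are letters in a window, and binding at them was not measured in these libraries.

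After 2 h of TGFβ1, few of the genes moved and they moved both ways: Nfe2l2 itself and Gclc fell, while Gclm, Hmox1 and Ftl1 rose. These 5 of 36 tested members (13.9%) had an adjusted p under 0.05 (quasi-likelihood test of edgeR, Benjamini-Hochberg adjustment over all genes), beside 15.2% of all genes tested, 9.91% higher and 5.25% lower. After 12 h the set was mostly lower: 26 members fell and 2 rose, so that 77.8% passed, beside 43.3% of all genes (21.5% lower and 21.8% higher). Of the 36 members tested, 11 were lower with a log2FC below -1, beside 11.6% of all genes tested. The median log2FC over the 36 members was 0.10 at 2 h and -0.72 at 12 h, whereas over all genes tested it was -0.01 and 0.02. In 32 of 36 members (88.9%) both 12 h libraries lay below both vehicle libraries, as they did in 37.2% of all genes tested. The number called at 2 h rested on single libraries, since it was 3 without vehicle replicate 1 or 2, when 5.63% and 6.46% of all genes were called, and 8 without replicate 1 at 2 h, when 19.9% were. Scaling by total counts gave 2 higher and 3 lower members at 2 h, and 854 higher and 975 lower of all genes instead of 1098 and 582. At 12 h that scaling gave 27 lower members and 0 higher, and 1830 higher and 3047 lower of all genes instead of 2414 and 2385.

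**Figure D1:**
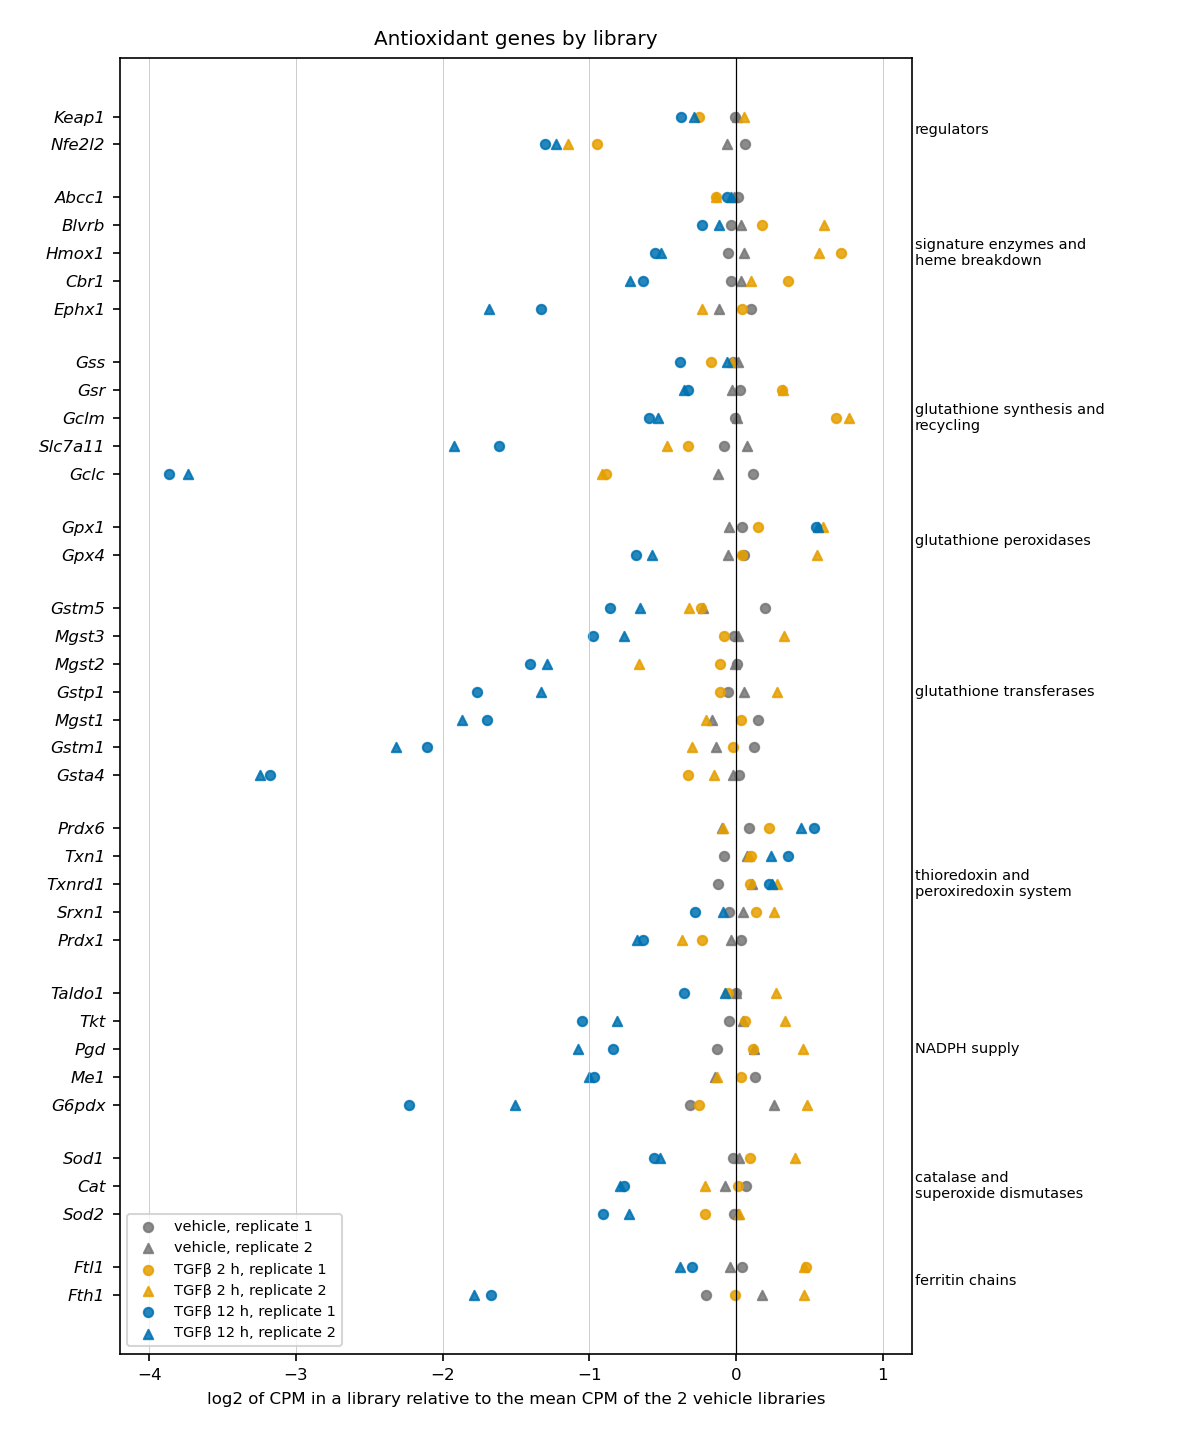
Each row is 1 of the 36 tested genes, grouped by role, and each point 1 library, placed by the log2 of its CPM relative to the mean of the 2 vehicle libraries (grey, vehicle; orange, TGFβ 2 h; blue, TGFβ 12 h; circles and triangles, replicates 1 and 2). The blue points lie left of both grey points in 32 of 36 genes.

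Nfe2l2 (Entrez 18024, chr2:75513570-75542698, minus strand in NCBIM37, the build also called mm9) had 289.5 and 267 CPM in the vehicle libraries, 144 and 126 CPM at 2 h and 113 and 119 CPM at 12 h. The treated groups lay wholly below vehicle at both times and close to each other. Its log2FC was -1.04 ± 0.11 (SE) at 2 h (adjusted p = 0.00208) and -1.26 ± 0.11 at 12 h (adjusted p = 0.000284). Between 2 h and 12 h it differed by -0.22 ± 0.11, which did not pass the test (adjusted p = 0.175). Keap1, the repressor and sensor that targets NRF2 for degradation, had 88.3 and 89.5 CPM in vehicle, 74.8 and 92.2 CPM at 2 h and 68.4 and 72.9 CPM at 12 h. Its 2 h values overlapped those of vehicle, and at 12 h its log2FC of -0.33 did not pass (adjusted p = 0.0725). It did with replicates taken as blocks (0.0208), with total counts (0.0324), with only the 2 groups compared (0.0199), and without 2 h replicate 1 (0.0222) or 2 (0.0259).

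Glutamate-cysteine ligase makes the rate-limiting dipeptide of glutathione, and its catalytic subunit (Gclc) and modifier subunit (Gclm) moved in opposite directions at 2 h. Gclc (Entrez 14629, chr9:77602342-77642292, plus strand in NCBIM37) had 554 and 470.3 CPM in vehicle, 278 and 272 CPM at 2 h and 35.1 and 38.4 CPM at 12 h. No library of 1 group overlapped another group, and the level stepped down at each time. The log2FC was -0.90 ± 0.12 at 2 h (adjusted p = 0.0043) and -3.80 ± 0.13 at 12 h (adjusted p = 3.16e-05), a 13.9-fold lower level at 12 h. Gclm (Entrez 14630, chr3:121948475-121972902, plus strand in NCBIM37) had 176 and 179 CPM in vehicle, 285 and 303 CPM at 2 h and 118 and 123 CPM at 12 h. It was thus above vehicle in both 2 h libraries and below vehicle in both 12 h libraries, with a log2FC of 0.73 ± 0.095 (adjusted p = 0.0042) and then -0.56 ± 0.095 (adjusted p = 0.00368). On a scale of CPM per kilobase of exon, which allows genes to be compared, the ratio of the Gclc level to the Gclm level was 4.72 and 3.95 in the vehicle libraries, 1.46 and 1.34 at 2 h, and 0.448 and 0.470 at 12 h. The catalytic subunit's mRNA thus exceeded that of the modifier in both vehicle libraries and was below it in both 12 h libraries, as it also did in CPM. At 2 h the order of the subunits depended on the exon lengths, since in CPM Gclm was the higher (285 and 303 against 278 and 272). The absolute value of the Gclc to Gclm ratio depends on the exon lengths used, which do not affect its order among libraries.

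**Figure D2:**
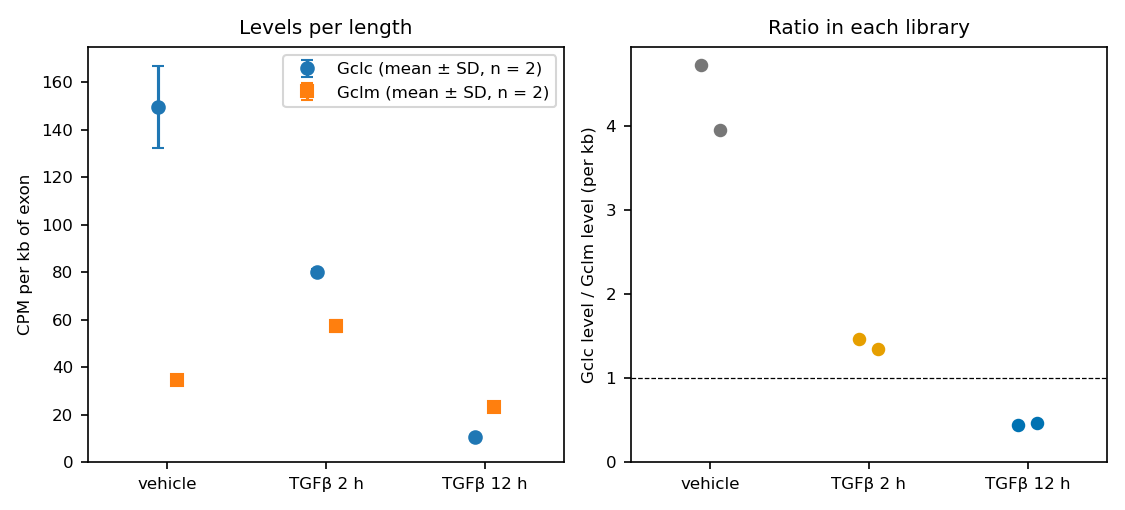
Left, mean level of Gclc and Gclm in CPM per kilobase of exon in each group, with bars of 1 SD (n = 2). Right, the ratio of the Gclc to the Gclm level in each library, with a dashed line at 1, which falls from 4.72 and 3.95 in vehicle to 0.448 and 0.470 at 12 h.

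Slc7a11, the subunit of the cystine importer that brings in the cysteine for glutathione, was at low level with 7.18 and 8.03 CPM in vehicle, 6.07 and 5.50 CPM at 2 h and 2.48 and 2.00 CPM at 12 h. Both 2 h libraries were below vehicle but the log2FC of -0.39 did not pass (adjusted p = 0.264), whereas at 12 h it was -1.75 ± 0.22 (adjusted p = 0.00111). Gsr, glutathione reductase, which regenerates reduced glutathione with NADPH, had 274 and 263 CPM in vehicle, 333 and 336 CPM at 2 h and 214 and 209.6 CPM at 12 h. Its libraries stood above vehicle at 2 h and below it at 12 h, as those of Gclm did. The 2 h log2FC of 0.32 ± 0.092 did not pass (adjusted p = 0.065), but did with the replicate block (0.0268) and with DESeq2 (0.0146), and the 12 h log2FC was -0.34 ± 0.092 (adjusted p = 0.0227). Not every alternative fit that keeps all libraries called Gsr at 2 h. Gss, glutathione synthetase, which adds the final glycine, had 139 and 142 CPM in vehicle, 125 and 138 CPM at 2 h and 108 and 135 CPM at 12 h. It did not pass the test at either time (adjusted p = 0.676 and 0.241). Of the 5 genes for glutathione synthesis and recycling, 4 fell at 12 h and 1 did not pass, beside 21.5% of all genes that fell.

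Hmox1, heme oxygenase, which breaks heme into biliverdin, iron and carbon monoxide, had 63.7 and 68.7 CPM in vehicle, 109 and 97.9 CPM at 2 h and 45.2 and 46.5 CPM at 12 h. It rose and then fell below the vehicle level, with no overlap among the 3 groups. The log2FC was 0.64 ± 0.10 at 2 h (adjusted p = 0.00962) and -0.53 ± 0.11 at 12 h (adjusted p = 0.00724). The 2 h call was lost without either vehicle library, with an adjusted p of up to 0.0863, while its log2FC stayed between 0.55 and 0.72. Blvrb, biliverdin reductase B, which reduces flavins and some biliverdin isomers, had 22.2 and 23.3 CPM in vehicle, 25.8 and 34.5 CPM at 2 h and 19.4 and 21.0 CPM at 12 h. Although Blvrb lay above vehicle at 2 h and below it at 12 h, neither difference passed (adjusted p = 0.165 and 0.439).

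The genes of ferritin, the cage that stores iron, were the 2 most abundant members per kilobase in every group. Ftl1, the light chain, had 1421 and 1343 CPM in vehicle, 1923 and 1908 CPM at 2 h and 1122 and 1063 CPM at 12 h. It showed the same order as Hmox1, with a log2FC of 0.47 ± 0.10 at 2 h (adjusted p = 0.0253) and -0.34 ± 0.10 at 12 h (adjusted p = 0.0328). The 2 h call was near the threshold and was lost when any of the 6 libraries was left out (adjusted p between 0.0514 and 0.145), with total counts (0.0553) and when only the 2 groups compared were fitted (0.0791). Fth1, the heavy chain, which oxidizes iron, had 728 and 946 CPM in vehicle, 834 and 1154 CPM at 2 h and 263 and 243 CPM at 12 h. The 2 h libraries overlapped vehicle, and at 12 h the log2FC was -1.73 ± 0.20 (adjusted p = 0.000747). The heavy to light chain ratio per kilobase was 0.793 and 1.09 in vehicle, 0.671 and 0.936 at 2 h, and 0.363 and 0.353 at 12 h. In Ftl1, 8.13% of exon bases are shared with another annotated gene of the same strand, and both ferritin genes have many processed copies in the mouse genome, so their counts from uniquely placed reads are uncertain in size.

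**Figure D3:**
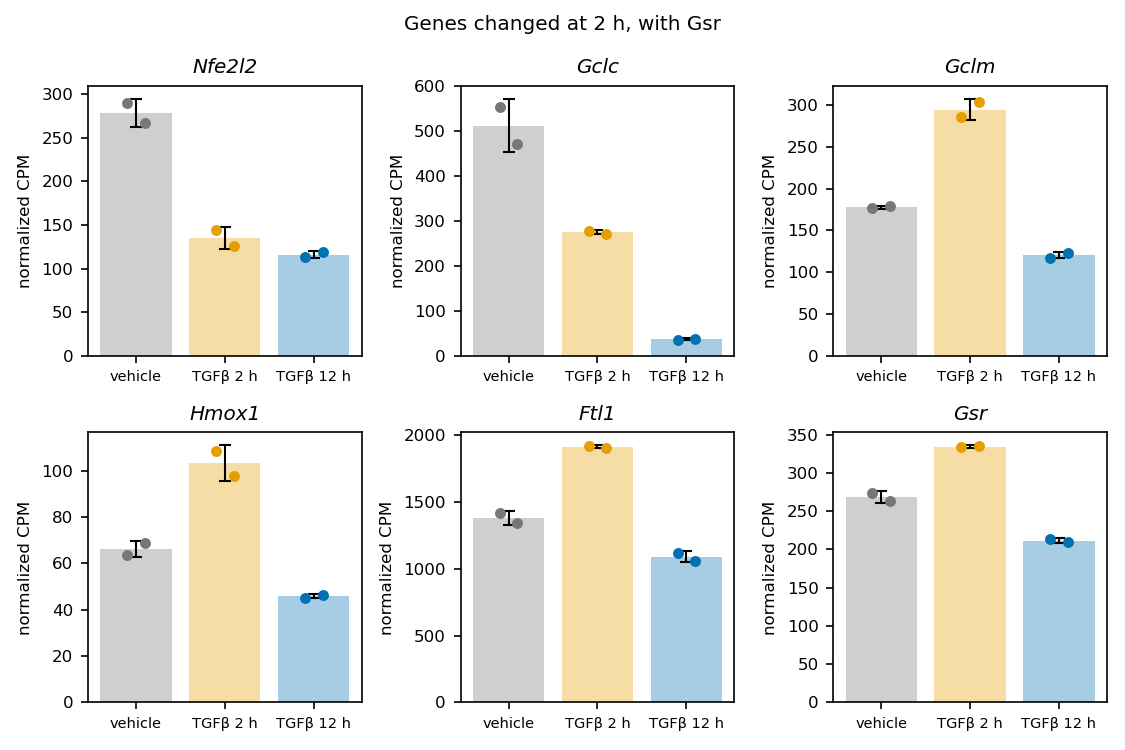
Normalized CPM of the 5 members called at 2 h and of Gsr in each group, with bars for the mean, error bars of 1 SD (n = 2) and a point per library. Gclm, Hmox1, Ftl1 and Gsr stand above vehicle at 2 h and below it at 12 h, whereas Nfe2l2 and Gclc are below vehicle at both times.

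Among the enzymes often used as a signature of NRF2 activity, Nqo1, the quinone reductase, was near the detection limit. Its counts were 20 and 27 with vehicle, 29 and 29 at 2 h, and 3 and 4 at 12 h. The 12 h counts, 7 in all against 47 in vehicle, gave a depth-corrected ratio of 0.115 with an exact 95% interval of 0.0438 to 0.255 that covers counting error only. Fitted without the filter on low counts, Nqo1 had a log2FC of -3.07 ± 0.50 at 12 h (adjusted p = 0.00135) and 0.02 at 2 h (adjusted p = 1). Ephx1, microsomal epoxide hydrolase, had 539 and 464 CPM in vehicle, 517 and 426 CPM at 2 h and 199.7 and 156 CPM at 12 h. It did not pass at 2 h (adjusted p = 0.759) and was lower at 12 h, with a log2FC of -1.50 ± 0.17 (adjusted p = 0.000704). Cbr1, a carbonyl reductase, had 11.0 and 11.5 CPM in vehicle, 14.4 and 12.1 CPM at 2 h and 7.28 and 6.83 CPM at 12 h, a log2FC of -0.68 ± 0.17 at 12 h (adjusted p = 0.0179). Abcc1, a transporter that exports glutathione conjugates, had 139 and 137 CPM in vehicle, 126 and 126 CPM at 2 h and 132 and 135 CPM at 12 h, and its log2FC of -0.048 ± 0.090 at 12 h did not pass (adjusted p = 0.695).

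Glutathione transferases, which join glutathione to electrophiles, fell in 7 of 7 genes tested at 12 h, when 21.5% of all genes fell. At 2 h none of the 7 passed, with log2FC from -0.36 for Mgst2 to 0.14 for Mgst3 in edgeR's test, where 0 of them also had an unadjusted p under 0.05, and limma-voom and DESeq2 called 0. Gsta4, which detoxifies lipid aldehydes such as 4-hydroxynonenal, had 464 and 451 CPM in vehicle, 365 and 411 CPM at 2 h and 50.6 and 48.2 CPM at 12 h. Its 2 h libraries were slightly below vehicle without passing (adjusted p = 0.188), and at 12 h its log2FC was -3.21 ± 0.11 (adjusted p = 3.16e-05). By level per kilobase Gsta4 was ranked 3 of the 39 members in vehicle and at 2 h and 15 at 12 h. Gstm1, of the cytosolic mu class, had 108 and 89.7 CPM in vehicle, 97.1 and 80.0 CPM at 2 h and 22.9 and 19.8 CPM at 12 h (12 h log2FC -2.21 ± 0.16, adjusted p = 0.000142). Both 12 h libraries were below all others, as for each of the 7 transferases tested. Mgst1, a membrane-bound transferase with peroxidase activity, had 313 and 252 CPM in vehicle, 289 and 245 CPM at 2 h and 87.2 and 77.4 CPM at 12 h (12 h log2FC -1.78 ± 0.15, adjusted p = 0.000251). Gstp1, of the pi class, had 66.3 and 71.6 CPM in vehicle, 63.9 and 83.6 CPM at 2 h and 20.3 and 27.4 CPM at 12 h (12 h log2FC -1.53 ± 0.19, adjusted p = 0.00107). The groups of Mgst1 and Gstp1 overlapped between vehicle and 2 h. Mgst2 had 70.2 and 69.3 CPM in vehicle, 64.5 and 44.0 CPM at 2 h and 26.4 and 28.6 CPM at 12 h (12 h log2FC -1.34, adjusted p = 0.00164). Mgst3, like Mgst1 and Mgst2 an enzyme of membranes, had 146 and 148 CPM in vehicle, 139 and 185 CPM at 2 h and 74.7 and 86.6 CPM at 12 h (12 h log2FC -0.87, adjusted p = 0.00487). Gstm5, of the mu class, had 24.8 and 18.5 CPM in vehicle, 18.4 and 17.4 CPM at 2 h and 11.9 and 13.7 CPM at 12 h (12 h log2FC -0.76, adjusted p = 0.0159). Gstt1 had no more than 4 counts in any library and was not tested. Mu and pi class genes have close copies, so reads that match several of them were not counted and their levels are uncertain.

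The glutathione peroxidases, which reduce peroxides with glutathione, went both ways at 12 h. Gpx1, the abundant cytosolic form, had 86.2 and 81.1 CPM in vehicle, 92.8 and 126 CPM at 2 h and 122 and 123 CPM at 12 h. Its 12 h libraries lay above vehicle (log2FC 0.55 ± 0.15, adjusted p = 0.0272), a call lost with total counts (0.0786). Gpx4, which reduces lipid hydroperoxides in membranes and protects cells from ferroptosis, had 79.2 and 73.2 CPM in vehicle, 78.2 and 112 CPM at 2 h and 47.6 and 51.3 CPM at 12 h. The 2 h libraries differed widely from each other, and at 12 h both were below all others (log2FC -0.62 ± 0.17, adjusted p = 0.027). Gpx2, a form of the gut epithelium, had at most 2 counts in a library.

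The thioredoxin and peroxiredoxin system, which reduces protein disulfides and peroxides, held 5 of the members. Of these none passed edgeR's test at 2 h, where 1 had an unadjusted p under 0.05 and limma-voom called 0 and DESeq2 1. At 12 h 1 of the 5 rose and 1 fell, a share of 40% beside 43.3% of all genes. Prdx1, the major cytosolic peroxiredoxin, had 1351 and 1287 CPM in vehicle, 1121 and 1020.0 CPM at 2 h and 849 and 824 CPM at 12 h. It was below vehicle at both times, with a log2FC of -0.30 ± 0.10 at 2 h, which did not pass (adjusted p = 0.106) but did with the replicate block (0.0424), DESeq2 (0.0251) and total counts (0.0347), and -0.66 ± 0.10 at 12 h (adjusted p = 0.00286). At 2 h not every alternative fit that keeps all libraries called Prdx1. Prdx6, a peroxiredoxin that also has phospholipase activity, had 170.4 and 149.9 CPM in vehicle, 187 and 151 CPM at 2 h and 231 and 218 CPM at 12 h. Its 12 h libraries were above vehicle (log2FC 0.49 ± 0.14, adjusted p = 0.0266), a call lost with total counts (0.0535). Txn1, thioredoxin, had 185 and 207 CPM in vehicle, 210.1 and 208 CPM at 2 h and 251 and 231 CPM at 12 h, and its 12 h log2FC of 0.30 did not pass (adjusted p = 0.0573) but did with the block (0.029) and with DESeq2 (0.0378). Not every alternative fit that keeps all libraries called Txn1. Both 12 h libraries of Txn1 lay above all others. Txnrd1, thioredoxin reductase, had 184 and 216 CPM in vehicle, 214 and 243 CPM at 2 h and 234 and 237 CPM at 12 h, and its 12 h log2FC of 0.24 did not pass (adjusted p = 0.161). Srxn1, sulfiredoxin, which repairs overoxidized peroxiredoxins, had 65.3 and 69.9 CPM in vehicle, 74.5 and 81.0 CPM at 2 h and 55.7 and 63.4 CPM at 12 h, and its 12 h log2FC of -0.18 did not pass (adjusted p = 0.236).

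NADPH is the electron source for both the glutathione and the thioredoxin systems. G6pdx, glucose-6-phosphate dehydrogenase, which opens the pentose phosphate pathway, had 90.9 and 136 CPM in vehicle, 95.1 and 158 CPM at 2 h and 24.1 and 39.8 CPM at 12 h. Replicate 2 was higher than replicate 1 in each group, and both 12 h libraries were below all the others (log2FC -1.83 ± 0.35, adjusted p = 0.00591). Pgd, which catalyses the next oxidative NADPH-producing reaction, had 155 and 185 CPM in vehicle, 184 and 234 CPM at 2 h and 95.0 and 80.7 CPM at 12 h (12 h log2FC -0.95 ± 0.16, adjusted p = 0.00394). Its 12 h libraries also lay below all others. Me1, malic enzyme, a source of NADPH outside that pathway, had 275 and 228 CPM in vehicle, 258 and 230.2 CPM at 2 h and 128 and 125 CPM at 12 h (12 h log2FC -0.99 ± 0.13, adjusted p = 0.0012). Tkt, transketolase of the non-oxidative branch, had 1105 and 1178 CPM in vehicle, 1192 and 1439.5 CPM at 2 h and 552 and 652 CPM at 12 h (12 h log2FC -0.92 ± 0.14, adjusted p = 0.00245). Taldo1, transaldolase of the same branch, had 255 and 254 CPM in vehicle, 244 and 308 CPM at 2 h and 199 and 242 CPM at 12 h, and did not pass at 12 h (log2FC -0.21, adjusted p = 0.309). Of these 5 genes 4 were lower at 12 h, beside 21.5% of all genes. At 2 h edgeR, limma-voom and DESeq2 called 0 of 5, and 0 had an unadjusted p under 0.05.

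Catalase, which removes hydrogen peroxide, and the superoxide dismutases Sod1 and Sod2 fell at 12 h, 3 of 3 genes beside 21.5% of all genes. Cat had 467 and 422 CPM in vehicle, 449 and 385 CPM at 2 h and 262 and 258 CPM at 12 h (12 h log2FC -0.77 ± 0.12, adjusted p = 0.00242). Sod2, the mitochondrial dismutase, had 98.1 and 100.2 CPM in vehicle, 85.7 and 101 CPM at 2 h and 53.0 and 59.9 CPM at 12 h (12 h log2FC -0.81 ± 0.12, adjusted p = 0.00226). Sod1, the cytosolic copper and zinc dismutase, had 206 and 213 CPM in vehicle, 224 and 277 CPM at 2 h and 142 and 146 CPM at 12 h (12 h log2FC -0.54 ± 0.12, adjusted p = 0.0128). At 2 h edgeR, limma-voom and DESeq2 called 0 of the 3 and 0 had an unadjusted p under 0.05, with log2FC from -0.090 to 0.26 in edgeR.

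Ranked by level per kilobase among the 39 members, Gclc went from 10 in vehicle to 16 at 2 h and 31 at 12 h. Ephx1 went from 6 in vehicle and at 2 h to 10 at 12 h. Gpx1 moved the other way, from 14 in vehicle and 13 at 2 h to 6 at 12 h, and Txn1 from 7 and 8 to 4. These ranks describe levels, and neighbours in them were not tested against each other.

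Of the 28 calls at 12 h, 19 remained called in each of the 6 fits that leave out a library. For Cbr1, Gsr, Gpx1, Gpx4, Prdx6, Sod1 and Ftl1 the call was lost when any of the 4 vehicle or 12 h libraries was left out, with adjusted p of up to 0.103, 0.124, 0.126, 0.138, 0.158, 0.0785 and 0.172, and none of them changed sign. Hmox1 lost its 12 h call without vehicle replicate 2 or 12 h replicate 1 (up to 0.0586), and Gstm5 without vehicle replicate 1 or either 12 h library (up to 0.109).

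The 12 h libraries were also tested against the 2 h libraries, since both times share the vehicle. Here 26 members (72.2%) were lower at 12 h and 0 were higher in edgeR's test (1, Prdx6, at an unadjusted p under 0.05, 0 with limma-voom and 1 with DESeq2), beside 34.1% of all genes in either direction, 18.9% lower and 15.2% higher. The count was 17 without 12 h replicate 1, when the share of all genes called was 14.6%. For the genes that had risen at 2 h, the log2FC between the times was -1.29 ± 0.096 for Gclm (adjusted p = 0.000384), -1.17 ± 0.11 for Hmox1 (adjusted p = 0.000632) and -0.81 ± 0.10 for Ftl1 (adjusted p = 0.00179), beside a median of -0.86 over the 36 members. The largest step among the 36 was that of Gsta4, at -2.98 ± 0.11, followed by Gclc, at -2.90 ± 0.13. With replicates as blocks Gstm5 and Taldo1 were also lower (-0.48, adjusted p = 0.0413, and -0.32, adjusted p = 0.033) and Prdx6 was higher (0.42, adjusted p = 0.00589), against 0.0878, 0.141 and 0.0566 without the block.

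A further 115 genes in 7 lists around the pathway were counted, of which 85 were tested. At 2 h 9 of 85 passed (10.6%, 3 higher and 6 lower), beside 15.2% of all genes, or 20 with replicates as blocks, beside 29.1% of all genes. At 12 h 47 of 85 passed (55.3%, 8 higher and 39 lower), beside 43.3% of all genes. In these lists the 2 h count was 5 without either vehicle library or either 12 h library and 14 without 2 h replicate 1, and the 12 h count was 29 without 12 h replicate 1. Among the partners and regulators of NRF2, 3 of 12 tested rose at 2 h, 2 rose at 12 h and 0 fell. Fallen genes numbered 1 at each time at an unadjusted p under 0.05 (Rbx1 at 2 h and Nfe2l1 at 12 h), limma-voom called 0, and DESeq2 called 0 at 2 h and 1 at 12 h. With replicates as blocks 4 were higher and 1 lower at 2 h (Rbx1, adjusted p = 0.0299), when 29.1% of all genes were called, and at 12 h 4 were higher and 3 lower (Cul3, 0.0211, Rbx1, 0.0494, and Nfe2l1, 0.0272), when 55.3% of all genes were called. Sqstm1, the adaptor p62 that can sequester KEAP1, had 1028 and 1009.8 CPM in vehicle, 1741 and 1809.5 CPM at 2 h and 989.9 and 948 CPM at 12 h (2 h log2FC 0.80 ± 0.098, adjusted p = 0.00339). At 12 h its log2FC of -0.073 did not pass (adjusted p = 0.582). Bach1, the repressor that competes with NRF2 at its elements and holds Hmox1 down, had 69.5 and 60.2 CPM in vehicle, 131 and 93.4 CPM at 2 h and 91.1 and 88.9 CPM at 12 h (2 h log2FC 0.79 ± 0.17, adjusted p = 0.0271). Mafg, a small MAF partner of both NRF2 and BACH1, rose by 0.49 ± 0.10 at 2 h (adjusted p = 0.026). At 12 h the small MAF genes Maff and Mafk rose by 1.39 ± 0.23 (adjusted p = 0.00324) and 0.95 ± 0.19 (adjusted p = 0.00727). The calls of Bach1 and Mafg were lost without either vehicle or either 12 h library, that of Mafg also without 2 h replicate 1 (adjusted p of up to 0.142 and 0.167), and that of Mafk without 12 h replicate 2 (0.059). Sqstm1, Bach1, Mafg, Mafk, Rbx1, Cul3 and Nfe2l1 are named because each count was small, after their values were seen.

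Of 7 other transferases tested, 3 fell, 1 rose and 3 did not pass at 12 h (57.1% called, beside 43.3% of all genes). Those that fell were Gsta3 (-3.61), Gstm7 (-3.13) and Gstm2 (-1.21), and Gsto2, of the omega class, rose (1.14). Of 12 genes of other glutathione handling tested, 6 fell and 1 rose at 12 h (58.3% called, beside 43.3% of all genes). The gene that rose, named after its values were seen, was Slc3a2 (0.36), the heavy chain partner of Slc7a11, a call lost without any of the 4 vehicle or 12 h libraries (adjusted p of up to 0.197). Cth and Cbs, which make cysteine from homocysteine, fell at 12 h with log2FC of -1.81 and -1.28. Chac2, which degrades glutathione, was lower at both times, with a log2FC of -1.19 ± 0.18 at 2 h (adjusted p = 0.00746) and -1.88 ± 0.19 at 12 h. Ggt6, a gamma-glutamyltransferase family member, and Esd, which hydrolyses S-formylglutathione, were also lower at 12 h (-2.02 and -1.19). Among detoxification enzymes, Aldh3a1, an aldehyde dehydrogenase, had 54.9 and 50.8 CPM in vehicle, 47.8 and 53.2 CPM at 2 h and 1.61 and 1.54 CPM at 12 h. It had the largest change of the 121 genes tested in these lists and the set, a log2FC of -5.06 ± 0.15 (adjusted p = 2.26e-05). Cbr3, the paralog of Cbr1, was low throughout and had a log2FC of -3.98 at 12 h, while the efflux pumps Abcc4, Abcc2 and Abcc3 had -2.74, -2.59 and -1.79. Idh1, a cytosolic NADPH source, had 1139 and 1050.3 CPM in vehicle, 878 and 760.5 CPM at 2 h and 198 and 227 CPM at 12 h, a log2FC of -2.37 ± 0.13 (adjusted p = 6.03e-05). Nqo2 and Ugt1a6a fell with log2FC of -1.43 and -3.26, although 48.8% of the Ugt1a6a exon bases are shared with other genes on its strand, and Akr1b3, aldose reductase, rose by 1.33.

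Txnip, the inhibitor of thioredoxin, had 81.9 and 101 CPM in vehicle, 20.7 and 27.4 CPM at 2 h and 93.7 and 62.5 CPM at 12 h. It was lower in both 2 h libraries (log2FC -1.93 ± 0.24, adjusted p = 0.00359) and overlapped vehicle at 12 h. Osgin1, an oxidative stress-induced growth inhibitor and known NRF2 target, fell already at 2 h, from 41.7 and 35.3 CPM to 9.67 and 6.56 CPM, and had 6.63 and 5.70 CPM at 12 h (log2FC -2.25 ± 0.22 and -2.64 ± 0.23, adjusted p = 0.00158 and 0.000251). Sesn2, a stress-induced sestrin, was lower at 2 h (-1.30 ± 0.16, adjusted p = 0.00308) and at 12 h (-0.76, adjusted p = 0.00752). Its 12 h log2FC was -0.87 to -0.65 with a library left out. Of 22 tested genes of the other thioredoxin, peroxiredoxin and repair list, 10 fell and 3 rose at 12 h (59.1% called, beside 43.3% of all genes). Those that fell included Prdx4 (-1.17) and Sod3 (-1.40), and the 3 that rose, named after their values were seen, were Prdx2 (0.69), Txnl1 (0.86) and Msrb3 (0.78). The call of Txnl1 was lost without vehicle replicate 2 or 12 h replicate 1 (adjusted p of up to 0.0823), and that of Msrb3 without vehicle replicate 1 or either 12 h library (up to 0.0967). Also lower at 12 h were the oxidant producers Cybb (-3.95) and Xdh (-2.02), 2 of the 4 tested in that list (50% called, beside 43.3% of all genes). Of 8 genes of iron and metal handling, 6 fell at 12 h (75% called, beside 43.3% of all genes). These included Tfrc, the transferrin receptor (-1.11), Slc40a1, the iron exporter ferroportin (-1.20), Ncoa4, which delivers ferritin for degradation (-1.24), and the metallothioneins Mt1 (-1.59) and Mt2 (-1.95), whose 2 h replicates differed widely (108 and 334 CPM for Mt1). Of the 29 genes of these lists named for a 12 h log2FC beyond 1, 25 remained called with any library left out. Mt1 and Mt2 lost the call without any of the 4 vehicle or 12 h libraries (adjusted p of up to 0.161 and 0.216), Sod3 without either vehicle library or 12 h replicate 1 (up to 0.148), and Slc40a1 without vehicle replicate 1 or either 12 h library (up to 0.101).

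**Figure D4:**
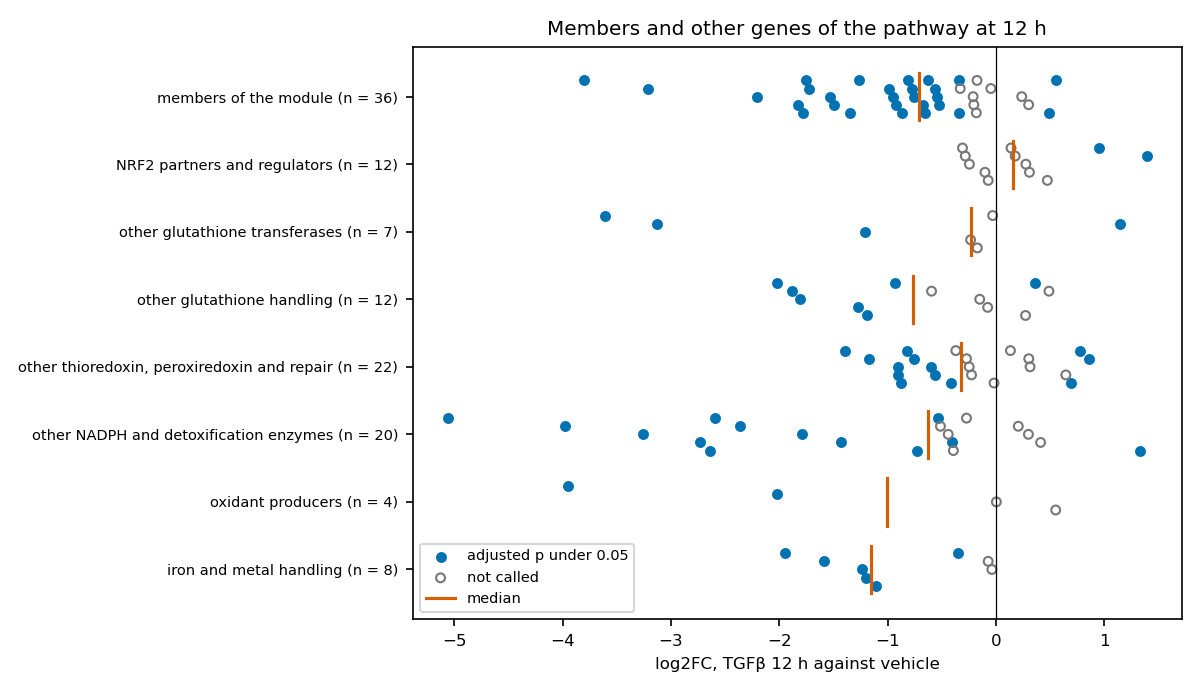
Log2FC at 12 h against vehicle of each tested gene in the set (n = 36) and in the 7 further lists, with filled points for adjusted p under 0.05, open points for genes not called and a vertical mark for the median. The median of the set is -0.72, and the list of NRF2 partners and regulators has no called gene below 0 in this fit, and 3 with replicates as blocks.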

How the data were processed

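Total RNA of 6 NMuMG libraries was sequenced as single 50-base reads from a stranded kit. The deposited values are raw counts per gene: the authors filtered the reads, aligned unique ones to mm9 with the subjunc aligner of Subread, removed duplicates with SAMtools 0.1.19 and counted reads on exons of UCSC known genes with featureCounts, with strand. Removing duplicates and dropping reads with several matches lowers the counts of abundant, short or copied genes.

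Counts were fitted in edgeR 4.0.16 (R 4.3.3) with TMM factors and the quasi-likelihood test, keeping genes of at least 2 CPM in at least 2 libraries, with all 6 libraries in 1 fit. Adjusted p-values are Benjamini-Hochberg over the 11080 genes tested, and a gene was called under 0.05. The study named voom, and that fit (limma 3.58.1) was an alternative, as were DESeq2 1.42.0, other scalings and filters, a replicate block, fits of only the 2 groups compared and fits leaving out a library. P-values measure the spread between libraries of a group, each of 2. Group and replicate came from the sample titles. Deviations of same-numbered libraries from their group means correlated over genes at 0.702 (vehicle and 2 h), 0.273 (vehicle and 12 h) and 0.392 (2 h and 12 h), so that the numbers were taken to pair the libraries. This pairing comes from the data, as the labels give the number alone. It was used in the replicate block only. The main fit, which gave the SE and adjusted p-values where no block is named, did not pair the libraries. At 2 h it called 15.2% of all genes, and the block called 29.1%. Members and lists were chosen with earlier results of these data known. Named genes are the members and, from the further lists, those called with an absolute log2FC above 1 at 2 h or 12 h against vehicle. Others named from small counts, after their values were seen, were Sqstm1, Bach1, Mafg, Mafk, Rbx1, Cul3, Nfe2l1, Slc3a2, Prdx2, Txnl1 and Msrb3. Lengths and positions came from the GENCODE annotation of NCBIM37. Scripts were tested on simulated data. Intervals cover counting error only. A further marker of the TGFβ response is not reported here.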

Additional observations from a re-analysis of the deposited data

Results flagged for a closer look

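By the direct edgeR quasi-likelihood test of 12 h against 2 h, 26 members differed, and in each the 12 h level was lower. Among all genes 34.1% were called, 18.9% lower. The test was direct because both times share the vehicle libraries. The 12 h libraries also had a longer time without serum and insulin, which cannot be told apart from the longer TGFβ1 exposure. The log2FC between the times was -1.17 for Hmox1, -0.58 for Blvrb, -0.91 for Cbr1 and -1.41 for Ephx1 among the signature and heme enzymes. For glutathione synthesis and recycling it was -1.36 for Slc7a11, -2.90 for Gclc, -1.29 for Gclm and -0.66 for Gsr, and for the peroxidase Gpx4 it was -0.94. Transferases differed by -2.98 for Gsta4, -2.05 for Gstm1, -1.63 for Gstp1, -1.70 for Mgst1, -0.98 for Mgst2 and -1.01 for Mgst3. The value was -0.38 for Srxn1 and -0.36 for Prdx1. In NADPH supply it was -1.99 for G6pdx, -1.25 for Pgd, -1.13 for Tkt and -0.94 for Me1. It was -0.68 for Cat, -0.80 for Sod1, -0.72 for Sod2, -0.81 for Ftl1 and -1.98 for Fth1.

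Of these, 17 remained called in each of the 6 fits leaving out a library. Without 12 h replicate 1, the calls lost were those of Blvrb, Cbr1, Gpx4, Mgst2, Srxn1, Prdx1, G6pdx, Cat and Sod2. Over all fits leaving out a library their adjusted p reached 0.18, 0.0651, 0.0714, 0.0792, 0.2, 0.193, 0.0565, 0.0612 and 0.0524 in that order. Without 12 h replicate 2 the calls of Blvrb, Cbr1, Gpx4, Mgst2, Srxn1, Prdx1 and Cat were lost. Blvrb, Srxn1 and Prdx1 were also lost without either vehicle library, Blvrb and Srxn1 without 2 h replicate 2, and Prdx1 without 2 h replicate 1. None of the 26 changed sign.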

How the results depend on the processing

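The number of members called was 4 to 7 at 2 h, 27 to 30 at 12 h and 23 to 29 between the times over all alternatives that keep every library. In the same fits the share of all genes called was 8.06% to 29.1%, 31.8% to 55.3% and 25% to 48.5%. Leaving out a library gave 3 to 8 at 2 h, 19 to 29 at 12 h and 17 to 28 between the times, when 5.63% to 19.9%, 25.7% to 49.1% and 14.6% to 34.6% of all genes were called. For the 7 further lists, the 9 genes called at 2 h became 14 with DESeq2, 20 with the replicate block, 5 with only the 2 groups compared, and 5 to 14 with a library left out. The share of all genes called at 2 h was 18.9%, 29.1% and 8.06% in the first 3 of these fits, from 15.2%. At 12 h, leaving out a library gave 29 to 54 genes of these lists, and between the times 20 to 41, with 20 and 22 of the 40 left without 12 h replicates 1 and 2. The replicate block changed no other call among the members than those of Gsr and Prdx1 at 2 h, Keap1 and Txn1 at 12 h, and Gstm5, Prdx6 and Taldo1 between the times. With total counts the 2 h log2FC became -0.011 for Gstp1, -0.017 for Txn1 and -0.037 for Prdx6, from values above 0.

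A library left out turned the sign of uncalled values alone. At 2 h the log2FC then ranged from -0.25 to 0.035 for Keap1, from -0.25 to 0.043 for Ephx1, from -0.11 to 0.26 for Gstp1, from -0.23 to 0.082 for Mgst1, from -0.080 to 0.31 for Mgst3, from -0.11 to 0.22 for Prdx6, from -0.25 to 0.48 for G6pdx, from -0.057 to 0.26 for Taldo1, from -0.17 to 0.096 for Me1, from -0.23 to 0.014 for Cat, from -0.21 to 0.0021 for Sod2 and from -0.0044 to 0.45 for Fth1. Between the times it ranged from -0.29 to 0.032 for Gss, from -0.044 to 0.40 for Gpx1 and from -0.045 to 0.14 for Txnrd1. The cause was not tested. With 2 libraries a group, a lone library left in a group is assumed to vary like the others. The filter on low counts left out Nqo1, Gpx2 and Gstt1, and at 2 counts or fewer no difference in Gpx2 was detectable.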
